A study of Mus musculus with 20 samples.

Results

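The interferon-inducible GTPases described here are 10 of the 39017 genes in the count table. They were taken by symbol, and they are the guanylate-binding proteins Gbp2, Gbp3, Gbp5, Gbp6, Gbp7 and Gbp9 and the immunity-related GTPases Irgm1, Irgm2, Igtp and Iigp1. RNA was sequenced from microglia and from astrocytes sorted from the forebrain on the injured side of adult male C57BL/6J mice (labelled C57BL/6), 3 to 4 months old and with no transgene. The mice were killed 7 days after lateral fluid percussion injury (FPI), in which a pulse of fluid strikes the exposed dura, or after sham injury, in which they went through the same craniectomy and anesthesia without the pulse. Microglia were gated as CD11b+ cells with intermediate CD45, and astrocytes by the astrocyte surface antigen ACSA-2. Each of the 4 groups (sham microglia, FPI microglia, sham astrocytes and FPI astrocytes) has 5 libraries, each from 1 animal without pooling. FPI astrocyte libraries 2 and 5 carry the same animal number.

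Interferons bind receptors that signal through JAK kinases to STAT transcription factors. Interferon gamma acts mainly through the gamma-activated site (GAS), whereas the type I interferons act mainly through the interferon-stimulated response element (ISRE). The guanylate-binding proteins and the immunity-related GTPases are among the genes that interferon gamma induces most strongly in mouse cells, and many of them also respond to type I interferon. Their proteins bind GTP, assemble on the membranes of vacuoles that hold intracellular pathogens, and help to disrupt them. Iigp1 is an effector that loads onto such vacuoles, Irgm1, Irgm2 and Igtp (also called Irgm3) are regulators that keep effectors off the cell's own membranes, and guanylate-binding proteins act beside them and in the response to bacteria in the cytosol.

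On GRCm38, in the GENCODE M21 annotation, the members lie in a few clusters. Gbp7 (chr3:142530342-142550149), Gbp3 (chr3:142560026-142573209) and Gbp2 (chr3:142620602-142638008) lie side by side on the plus strand of chromosome 3, and Gbp9 (chr5:105077630-105139539) lies on the minus strand of chromosome 5. Irgm1 (chr11:48861968-48871683, minus strand) stands apart on chromosome 11 from Igtp (chr11:58199556-58207591) and Irgm2 (chr11:58199618-58222782), whose annotated gene models overlap on the plus strand and share 162 exonic bases. Iigp1 lies apart from the others, at a position given with its values. Counts are reads per gene, and the sources used here do not say whether strand was used, so reads in the shared part of Igtp and Irgm2 cannot be assigned to one of them with certainty. The row named Gbp5 carries an identifier, ENSMUSG00000040264, that GENCODE M21 gives to Gbp2b, and the row named Gbp6 carries one, ENSMUSG00000079362, that it gives to Gm43302, a model that runs over Gbp10 and Gbp6 and shares 99.4% of its 75-base stretches with other genes. Both rows are reported under the table's names, with no position or length, and neither can be assigned to a single locus here. Gbp7 shared 11.3% of its 75-base stretches with other genes, mainly with the pseudogene Gm43802, the other named members shared at most 7.8%, and Irgm1 and Iigp1 shared none.

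Sequences before the RefSeq starts of the members are shown because they hold letters that match the elements through which both kinds of interferon act. Of the 10 members, 7 were searched, with promoters from the RefSeq table (GRCm38.p6). The 250 bases before the RefSeq start were read on both strands. One pattern was the core of the ISRE (GAAA and GAAA with any 2 bases between them, or TTTC and TTTC on the other strand). The other was a GAS (TTC and GAA with any 3 bases between them, a pattern that is the same on both strands). Gbp6, Gbp9 and Iigp1 had none in that table. The 7 members had 8 windows, and the second window of Gbp3 held neither motif. All 7 members held an ISRE core in a window, against 2.98% of all 32851 promoter windows in the table. Of the 7, 4 (Gbp5, Gbp7, Igtp and Irgm2) also held a GAS, against 0.332% of windows with both and 7.02% with a GAS. The Gbp5 window belongs to the RefSeq gene of that name, which may not be the locus of the Gbp5 row. The stretches of 30 bases that hold the ISRE core follow, 5′ to 3′ on the strand of the gene, with the letters of the matched motifs in capitals.
Irgm1 (chr11:48871427-48871456, minus strand): tttcaaGAAATAGAAACCGAAActgattct
Igtp (chr11:58199510-58199539, plus strand): tTTCTAGGAActGAAACTGAAAgctgttcg
Irgm2 (chr11:58214901-58214930, plus strand): tTTCCAGGAActGAAACTGAAAgctgttcg
Gbp2 (chr3:142620592-142620621, plus strand): gaactcttttagTTTCACTTTCactgtctt
Gbp3 (chr3:142559993-142560022, plus strand): acacagTTTCAGTTTCTATTTCccagatcc
Gbp7 (chr3:142530271-142530300, plus strand): ctgtgtgtgcagTTTCAGTTTCagttctcc
In Irgm1 and in Gbp3 the capitals are 2 overlapping ISRE cores, and in Igtp and Irgm2 they are a GAS and, after 2 further bases, an ISRE core. The match in Irgm1 ended 15 bases before the RefSeq start and that in Igtp 25 bases before it. RefSeq starts differ from the ends of the GENCODE M21 gene models given above, so that the stretches of Irgm1 and Irgm2 lie within those models and that of Gbp2 partly within. A match of letters is a description and does not show that a factor binds there.

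Total counts per library ran from 5623349 to 13110857, and levels are given as CPM, the usual counts scaled to a library's total, with TMM factors set within each cell type. Each cell type was tested alone with edgeR's quasi-likelihood test over all genes that passed its default filter on low counts. A gene was called where its p, adjusted over all tested genes by the Benjamini-Hochberg method, was below 0.1 and its log2 fold change was above 0.6 in size. All 10 members passed the filter in every fit. The 6 microglial markers summed to between 15100 and 25900 CPM in microglia and between 29.5 and 135 CPM in astrocytes, and the 7 astrocyte markers to between 9590 and 31300 CPM in astrocytes and between 235 and 589 CPM in microglia. Oligodendrocyte markers, 5 in all, summed to between 128 and 261 CPM in microglia and to between 1510 and 15900 CPM in astrocytes. In sham astrocyte library 4 they were above the astrocyte markers, at 15900 and 9590 CPM. The part of oligodendrocytes in the levels of the GTPases in astrocytes was not tested, and the count of members called between the sham cell types was 8 without each library in turn, that one included. One library had a name at odds with its label. FPI astrocyte library 5 is named with a microglial suffix and with the same animal number as FPI astrocyte library 2. Its label and its markers (135 CPM microglial and 14900 CPM astrocytic) are those of an astrocyte library. For FPI astrocytes, counts and medians are also given without it, as are the fold changes of each member. In sorted bulk RNA, a change in the level per cell and a change in the share of cells that express a gene cannot be told apart.

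In sham mice, microglia held more of most of these GTPases than astrocytes did. The summed level of the 10 members was 297 ± 45.5 CPM (SD, n = 5) in sham microglia and 72.3 ± 19.1 CPM in sham astrocytes. In one fit over all 20 libraries, 8 members were called, where 60.9% of the 15077 tested genes were. Of them 7 were higher in microglia, where 25.3% of genes were, and 1 was lower, where 35.6% were. The same 7 lay wholly above the astrocyte libraries, as 24% of genes did, and the 1 wholly below, as 28.6% did. The 3 regulators differed in degree. Irgm2 stood between 67.5 and 72.9 CPM in the 5 sham microglia libraries and between 2.80 and 6.41 CPM in the sham astrocyte libraries, with a log2 fold change in favour of microglia of 3.78 (SE 0.31, adjusted p = 8.59e-10). Igtp stood between 20.01 and 31.7 CPM in microglia and between 2.21 and 6.38 CPM in astrocytes (log2 fold change 2.44, SE 0.24, adjusted p = 1.67e-08). Irgm1 was the closest of the 3 between the cell types, at 26.6 to 36.2 CPM in microglia and 10.3 to 14.9 CPM in astrocytes (log2 fold change 1.24, SE 0.19, adjusted p = 7.26e-06). None of the 3 overlapped between the cell types.

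Among the guanylate-binding proteins, Gbp9 had the largest difference, with 30.8 ± 3.79 CPM in sham microglia and 3.41 ± 2.71 CPM in sham astrocytes (log2 fold change 3.11, SE 0.49, adjusted p = 1.01e-05). The row named Gbp5 (log2 fold change 2.54, SE 0.42), Gbp7 (2.00, SE 0.30) and Gbp3 (1.61, SE 0.34) were also called higher in microglia. The row named Gbp6 went the other way, at 1.74 ± 1.09 CPM in sham microglia and 5.90 ± 1.81 CPM in sham astrocytes, without overlap (log2 fold change -1.83, SE 0.55, adjusted p = 0.00626). Gbp2, at 10.3 ± 6.55 and 6.78 ± 3.00 CPM, and Iigp1, at 1.91 ± 1.49 and 2.73 ± 1.81 CPM, were not called, with 95% intervals of the log2 fold change from -0.43 to 1.54 for Gbp2 and from -1.72 to 0.60 for Iigp1. Iigp1, the effector, was thus low in both sham cell types, with 80 reads in all over the 5 sham microglia libraries and 124 over the 5 sham astrocyte libraries.

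**Figure D1:**
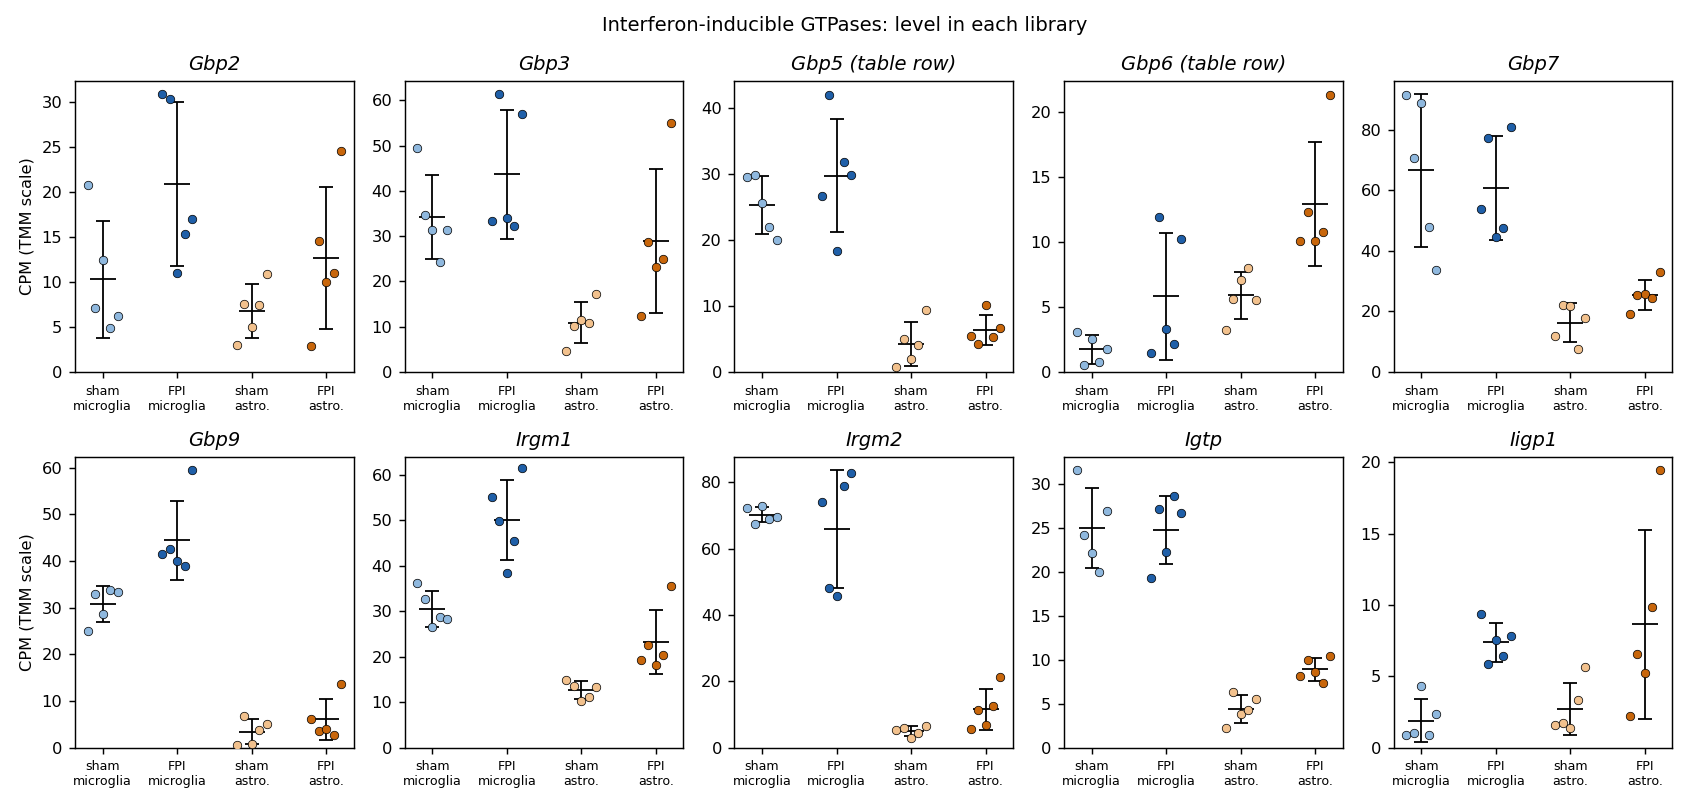
Level of each GTPase (CPM on the TMM scale, linear axis from 0) in each of the 5 libraries of the 4 groups, with 1 point per library, a bar at the mean and whiskers of 1 SD. Irgm1 and Iigp1 in FPI microglia lie wholly above sham microglia, Irgm2 and Igtp in microglia do not separate, and astrocyte means are higher in FPI than in sham in all 10 panels, with wide scatter and with FPI library 5 (the rightmost point) at the top in 9 of 10.

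On a scale that allows genes to be compared with each other, CPM per kilobase of exon, the order of levels in sham microglia was led by Irgm2 at 19 ± 0.616. Igtp (12.4 ± 2.24), Gbp7 (11.8 ± 4.51) and Gbp3 (10.5 ± 2.84) followed and did not differ from each other beyond their SDs. Gbp9 (5.95 ± 0.733), Irgm1 (5.25 ± 0.673) and Gbp2 (4.09 ± 2.60) formed a lower set in which neighbours again lay within 1 SD, and Iigp1 was far below them at 0.327 ± 0.255. In sham astrocytes the order per kilobase differed, with Gbp3 (3.33 ± 1.38), Gbp7 (2.89 ± 1.14), Gbp2 (2.69 ± 1.19), Igtp (2.20 ± 0.794) and Irgm1 (2.17 ± 0.331) within 1 SD of their neighbours. Irgm2, which led in microglia, came after them at 1.35 ± 0.388, and Gbp9 (0.659 ± 0.524) and Iigp1 (0.468 ± 0.311) were the lowest. The rows Gbp5 and Gbp6 have no length of their own here and were left out of this order.

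**Figure D2:**
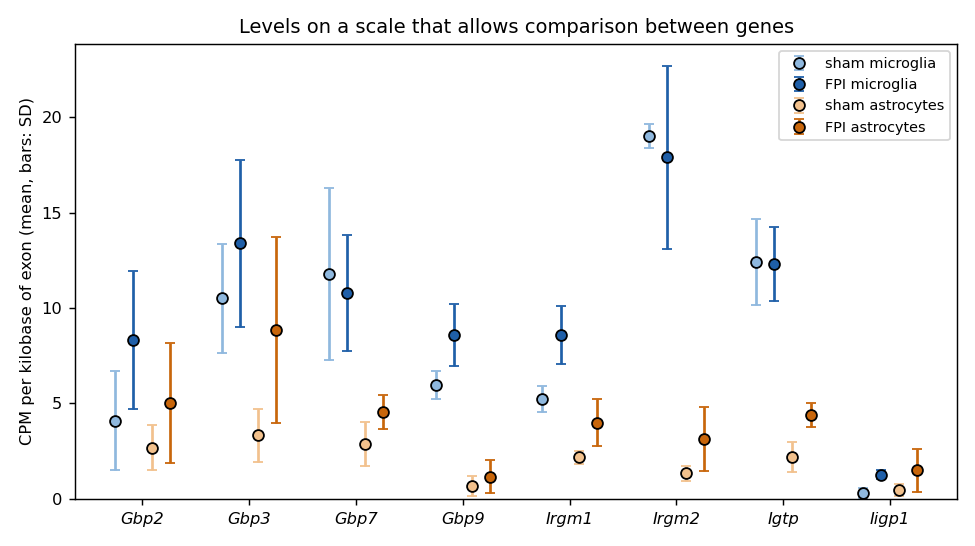
Mean level per kilobase of exon (CPM per kilobase, linear axis from 0, whiskers 1 SD over 5 libraries) of the 8 GTPases whose annotation matches the table's symbol, in the 4 groups. Irgm2 is the highest in sham microglia (19) and among the lower ones in sham astrocytes (1.35), and Iigp1 is the lowest in both.

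In microglia, Irgm1 and Iigp1 rose after FPI, and Igtp and Irgm2 had fold changes close to 0. Irgm1 and Iigp1 were the only members called, 2 of 10, both higher, where 2.13% of the 12143 tested genes were called higher, 0.214% lower and 2.35% in either direction. Without adjustment, 5 of 10 members were higher at p under 0.05 (Irgm1, Iigp1, Gbp9, Gbp2 and Gbp6), where 7.47% of genes were. The log2 fold change was above 0 for 7 of 10 members, where it was for 48.7% of genes. Its median over the 10 was 0.44, beside -0.0094 over all tested genes, and their summed level was 354 ± 64.6 CPM after FPI and 297 ± 45.5 CPM in sham.

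Of the regulators, Irgm1 stood at 36.2, 32.7, 26.6, 28.7 and 28.2 CPM in sham microglia libraries 1 to 5 and at 55.1, 49.8, 38.5, 45.4 and 61.4 CPM in FPI microglia libraries 1 to 5. Every FPI library was above every sham library, and the log2 fold change was 0.71 (SE 0.16, adjusted p = 0.0245, edgeR), a fold of 1.64. Igtp stood at 31.7, 24.3, 22.2, 20.01 and 27.02 CPM in sham and at 19.3, 27.2, 22.4, 28.6 and 26.7 CPM after FPI. Its groups overlapped fully, with a log2 fold change of -0.01 and a 95% interval from -0.41 to 0.39. Irgm2 was even across sham microglia, at 72.3, 67.5, 72.9, 69 and 69.6 CPM, and uneven after FPI, at 74.2, 48.0, 45.8, 79 and 82.9 CPM. FPI libraries 2 and 3 lay below all sham libraries and the other 3 above them, so that the SD was 17.7 CPM after FPI and 2.27 CPM in sham, and the log2 fold change was -0.09 (95% interval -0.43 to 0.25).

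Iigp1, on the plus strand of chromosome 18 (chr18:60376027-60392634), stood at 0.906, 1.06, 4.34, 0.894 and 2.33 CPM in sham microglia and at 9.35, 5.85, 7.53, 6.42 and 7.83 CPM after FPI. The groups did not overlap, and the log2 fold change was 1.96 (SE 0.50, adjusted p = 0.0504), a fold of 3.89, the largest of the 10 in microglia. It rests on few reads, 80 over the sham libraries and 287 over the FPI libraries. Without sham microglia library 1, 2 or 4, each of which lies at the lower end of the 5, the adjusted p of Iigp1 was 0.124, 0.159 or 0.127 and the call was lost, with log2 fold changes of 1.79, 1.79 and 1.78. Irgm1 was called without each library in turn, with adjusted p from 0.00685 to 0.0886.

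Of the guanylate-binding proteins on chromosome 3, Gbp2 stood at 20.8, 7.08, 12.5, 4.92 and 6.22 CPM in sham microglia and at 31.0, 30.3, 11.1, 15.3 and 17 CPM after FPI. The means were 2.03 times apart, but sham library 1 lay above 3 of the FPI libraries, and Gbp2 was not called (log2 fold change 1.02, SE 0.37, adjusted p = 0.218). It was called without sham library 1 (log2 fold change 1.44, adjusted p = 0.0536) and without FPI library 3 (1.19, adjusted p = 0.0976). Gbp3, at 34.2 ± 9.28 and 43.6 ± 14.3 CPM, and the row Gbp5, at 25.4 ± 4.41 and 29.7 ± 8.57 CPM, had log2 fold changes of 0.35 and 0.22 within overlapping groups. Gbp7 ranged widely in sham, from 33.6 to 91.5 CPM, and had a log2 fold change of -0.13 (95% interval -0.63 to 0.36).

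On chromosome 5, Gbp9 stood at 25.1, 33.0, 28.7, 33.8 and 33.4 CPM in sham microglia and at 41.4, 42.5, 39.9, 39.0 and 59.4 CPM after FPI. All FPI libraries were above all sham libraries, as they were for 3 of 10 members and for 2.11% of tested genes, but the log2 fold change of 0.53 (SE 0.17, adjusted p = 0.130) was below the threshold on size and its adjusted p above the one on p, so Gbp9 was not called. The row Gbp6 stood at 3.10, 0.566, 2.51, 0.782 and 1.75 CPM in sham and at 1.46, 11.9, 3.30, 2.19 and 10.3 CPM after FPI. FPI libraries 2 and 5 were high, libraries 1 and 4 lay within the sham range and library 3 just above it, and the log2 fold change, 1.75 (SE 0.66, adjusted p = 0.245), was not called.

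The microglia libraries come in 2 series of names, libraries 1 to 3 and libraries 4 and 5 of each condition. Fitted alone, libraries 1 to 3 gave log2 fold changes of 0.57 for Irgm1 and 1.84 for Iigp1, and libraries 4 and 5 gave 0.91 and 2.18. Neither series alone called a member (adjusted p of Irgm1 0.237 and 0.170, of Iigp1 0.226 and 0.290), where 2.95% and 0.815% of genes were called. Within the microglia libraries, markers of T and NK cells, which make interferon gamma, summed to between 0.894 and 11 CPM in sham and between 3.40 and 15.7 CPM after FPI, nearly all of it from Ccl5 and Cd4. These 2 went opposite ways, Ccl5 with 52 reads in sham and 270 after FPI, and Cd4 with 158 and 55. Of the 2 T and NK markers tested none was called, and 1 was higher at an unadjusted p under 0.05 (edgeR). Cd3e, Cd3g, Cd8a and Nkg7 had 0 reads in all 10 microglia libraries. Markers of monocytes and macrophages summed to 443, 280, 440, 26.4 and 21.4 CPM in sham libraries 1 to 5 and to 262, 186, 133, 21.3 and 67.2 CPM after FPI. Ly6c2 had 0 reads in both conditions, Ccr2 180 in sham and 193 after FPI, Plac8 2 and 38, and S100a4 12 and 0. Mrc1, Cd163, F13a1 and Lyve1 had lower means after FPI. Of the 5 markers tested none was called, and 1 was lower at an unadjusted p under 0.05 (edgeR). Of 7 astrocyte markers 5 were higher after FPI at an unadjusted p under 0.05 and 1 was called, Gfap, at 6.30 ± 5.11 CPM in sham and 42.5 ± 35.2 CPM after FPI, and the 7 summed to between 235 and 347 CPM in sham and between 302 and 589 CPM after FPI. The 5 oligodendrocyte markers summed to between 128 and 185 CPM in sham and between 176 and 261 CPM after FPI, and 1 of the 4 tested was called higher. One precursor marker, Cspg4, was also called higher, and the 4 precursor markers summed to between 4.02 and 6.23 CPM in sham and between 2.29 and 18.2 CPM after FPI. Of the 6 microglial markers none was called and 3 were lower at an unadjusted p under 0.05, with sums from 19300 to 25100 CPM in sham and from 15100 to 25900 CPM after FPI. The part of these cell types in the levels of the GTPases was not tested.

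**Figure D3:**
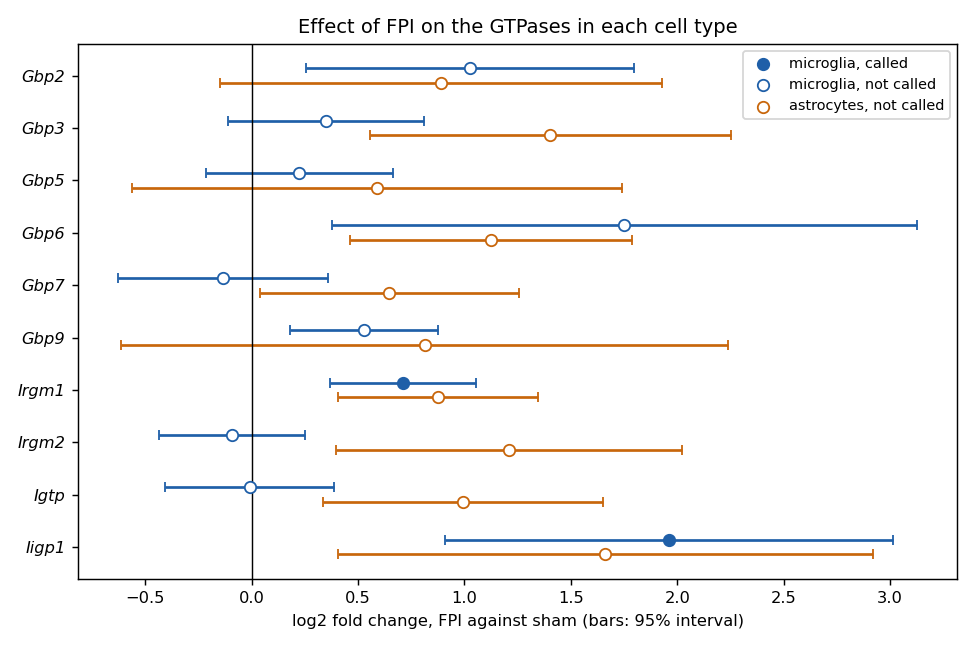
Log2 fold change of FPI against sham for each GTPase in microglia (blue) and astrocytes (orange), from edgeR's fit of each cell type alone, with 95% intervals. Filled points are called, and only Irgm1 and Iigp1 in microglia are. All 10 astrocyte points lie above 0 (0.59 to 1.66), and in microglia Gbp7, Irgm2 and Igtp lie at or just below 0.

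In astrocytes, all 10 GTPases had higher means after FPI than in sham, and none was called. One gene in all, 0.00728% of the 13741 tested, was called in astrocytes, and the adjusted p of each of the 10 members was 0.999. Without adjustment, 7 of 10 were higher at p under 0.05 (Irgm1, Gbp6, Gbp3, Igtp, Irgm2, Iigp1 and Gbp7), where 1.57% of genes were. DESeq2 called none of the 10 either, where it called 0.172% of 22650 genes. The log2 fold changes ran from 0.59 to 1.66 with a median of 0.94, beside -0.0052 over all tested genes, and 49.2% of all genes lay above 0. The summed level was 145 ± 56.7 CPM after FPI and 72.3 ± 19.1 CPM in sham.

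The regulators had higher means in FPI astrocytes than in sham, with differing scatter. The SD after FPI was 14.3% of the mean for Igtp, 30.3% for Irgm1 and 53.2% for Irgm2. Irgm1 stood at 14.9, 13.6, 10.3, 11.1 and 13.3 CPM in sham astrocytes and at 19.3, 22.7, 18.3, 20.5 and 35.5 CPM after FPI. The groups did not overlap, and the log2 fold change was 0.88 (SE 0.22, 95% interval 0.41 to 1.35, unadjusted p = 0.00153 from edgeR's fit, position 19 of all tested genes by p). Igtp stood at 2.21, 6.38, 3.84, 4.32 and 5.53 CPM in sham and at 8.22, 9.95, 8.66, 7.33 and 10.4 CPM after FPI, again without overlap, with a log2 fold change of 0.99 (SE 0.30). Irgm2 stood at 5.33, 5.96, 2.80, 4.42 and 6.41 CPM in sham and at 5.79, 11.3, 6.95, 12.4 and 21.4 CPM after FPI. FPI library 1 lay within the sham range and the other 4 above it, with a log2 fold change of 1.21 (SE 0.37).

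The effector Iigp1 had the largest fold change of the 10 in astrocytes, as it had in microglia. It stood at 1.56, 1.76, 1.35, 3.32 and 5.66 CPM in sham astrocytes and at 2.21, 6.55, 5.24, 9.88 and 19.4 CPM after FPI, a log2 fold change of 1.66 (SE 0.58), and sham library 5 lay above 2 of the FPI libraries. Gbp3 stood at 4.68, 10.1, 11.4, 10.9 and 17.3 CPM in sham and at 12.4, 28.8, 23.3, 24.9 and 55.1 CPM after FPI. Apart from FPI library 1 its FPI values lay above all sham values, with a log2 fold change of 1.40 (SE 0.39). The row Gbp6 stood at 3.25, 5.62, 7.05, 8.04 and 5.53 CPM in sham and at 10.1, 12.3, 10.1, 10.8 and 21.4 CPM after FPI, without overlap, with a log2 fold change of 1.12 (SE 0.30). Irgm1, Igtp and Gbp6 were the 3 of 10 members whose FPI libraries all lay above the sham libraries, as did 0.488% of tested genes. Gbp7 had a log2 fold change of 0.65 (SE 0.28), Gbp2 of 0.89 (SE 0.48), Gbp9 of 0.81 (SE 0.66) and the row Gbp5 of 0.59 (SE 0.53), each with overlapping groups.

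**Figure D4:**
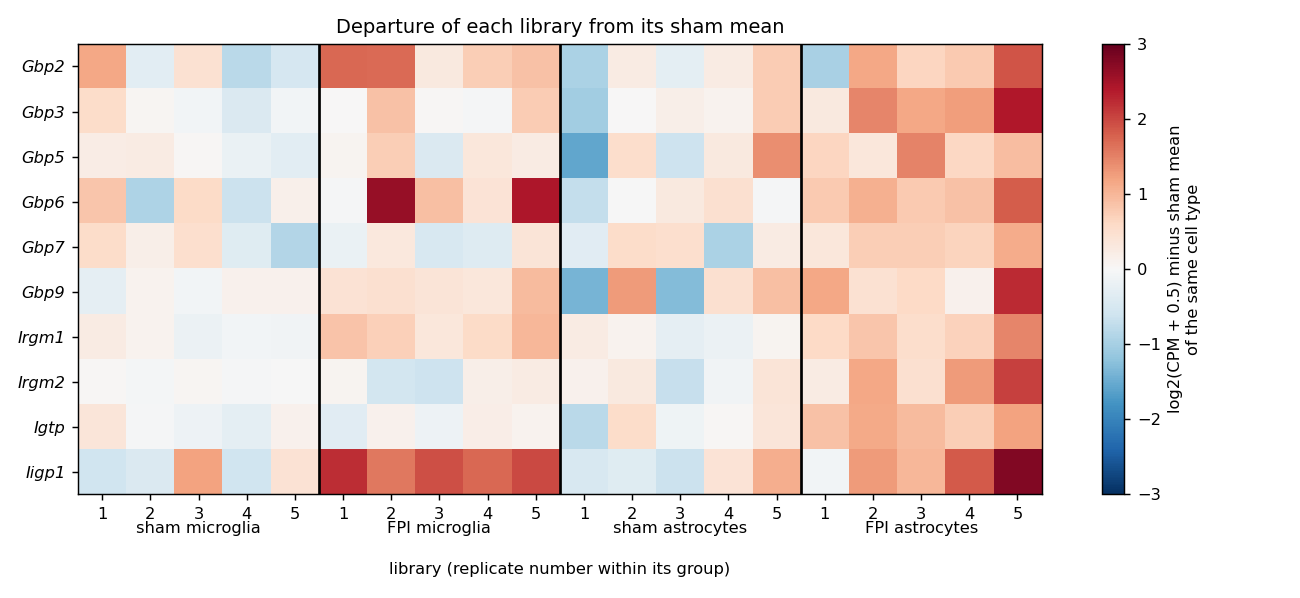
Departure of each library from the sham mean of its own cell type, as log2(CPM + 0.5), for the 10 GTPases (rows) in the 20 libraries (columns, numbered within their group). In astrocytes the FPI columns are mostly red with library 5 the deepest and library 1 the palest, and in FPI microglia Iigp1 is deep red in all 5 libraries, Gbp6 in libraries 2 and 5, and Irgm1 and Gbp9 are pale red in all 5.

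The size of the difference in astrocytes depended on single libraries. FPI astrocyte library 5 was the highest of its group for 9 of 10 members and FPI library 1 the lowest for 6, and sham astrocyte library 1 was the lowest of its group for 6. Without FPI library 5 all 10 members were still higher after FPI and 5 were so at an unadjusted p under 0.05, where 1.05% of genes were, with a median log2 fold change of 0.75 and a summed level of 121 ± 20.5 CPM (n = 4). The log2 fold changes were then 0.65 for Irgm1, 0.91 for Igtp, 0.85 for Irgm2, 1.12 for Iigp1, 1.02 for Gbp3 and 0.85 for the row Gbp6. They were 0.49 for Gbp2, 0.52 for Gbp7, 0.25 for Gbp9 and 0.55 for the row Gbp5, and none of these 4 passed an unadjusted p of 0.05, nor did Iigp1. Sham libraries also moved the lower members, the row Gbp5 from 0.31 without sham library 1 to 1.09 without sham library 5, and Gbp9 from 0.52 without sham library 1 or 3 to 1.23 without sham library 2. With libraries 2 and 5 summed, as they share an animal number, those of Irgm1 and Iigp1 were 0.75 and 1.43. Microglial markers were also higher in FPI astrocyte libraries, summing to between 29.5 and 58.5 CPM in sham and between 38.7 and 135 CPM after FPI, on average 0.18% and 0.44% of their level in microglia. Of the 5 tested, 3 were higher at an unadjusted p under 0.05 and none was called. Endothelial markers summed to between 25.8 and 421 CPM in sham astrocytes and between 87.5 and 349 CPM after FPI. The lowest sums in each condition were those of library 1, at 25.8 and 87.5 CPM, and FPI library 5 held 342 CPM. Markers of oligodendrocyte precursors summed to between 117 and 603 CPM in sham and between 68.9 and 1230 CPM after FPI, with library 1 at 117 and 68.9 CPM and library 5 at 603 and 1230 CPM, and 3 of 4 were higher at an unadjusted p under 0.05. Oligodendrocyte markers summed to between 1510 and 15900 CPM in sham and between 2930 and 10100 CPM after FPI, with library 5 lowest after FPI. The part of microglia, endothelial cells, precursors and oligodendrocytes in the levels of the GTPases was not tested.

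The effect of FPI on the GTPases was not shown to differ between microglia and astrocytes. In the fit over all 20 libraries, the difference of the effects was called for 0 of 10 members, where 0.199% of 15077 genes were called. DESeq2 also called 0, where it called 0.78% of 24106 genes. Without adjustment, 3 members had a smaller effect in microglia at p under 0.05, where 3.24% of genes did. They were Irgm2 (difference of log2 fold changes -1.29, SE 0.40, adjusted p = 0.365), Igtp (-0.98, SE 0.33, adjusted p = 0.450) and Gbp3 (-1.04, SE 0.48, adjusted p = 0.678). All 3 stood higher in sham microglia than in sham astrocytes, but so did Irgm1, Gbp7, Gbp9 and the row Gbp5. The differences of these others did not pass an unadjusted p of 0.05 (Gbp7 -0.77, row Gbp5 -0.36, Gbp9 -0.25). For Irgm1 the difference was -0.15 with a 95% interval from -0.70 to 0.39, and for Iigp1 it was 0.31 with an interval from -1.28 to 1.90. After FPI the ratio of the microglial to the astrocytic mean was 5.70 for Irgm2 and 2.79 for Igtp, and in sham it was 14.1 and 5.62. Without FPI astrocyte library 5, the ratios after FPI were 7.23 and 2.91, and the differences were -0.96 for Irgm2 (adjusted p = 0.536, edgeR), -0.94 for Igtp (adjusted p = 0.543) and -0.69 for Gbp3 (adjusted p = 0.842), the last at an unadjusted p of 0.125. Those of Irgm1 and Iigp1 were 0.04 and 0.82. The median difference over the 10 members was then -0.155, in place of -0.302, and it was above 0 for 5 of 10, in place of 3.

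The interferon gamma pathway upstream of the GTPases was read out in the same libraries. Ifng, the ligand, had 0 reads in all 10 microglia libraries. The receptor chains Ifngr1 (703 ± 47.1 and 690 ± 187 CPM) and Ifngr2 (149 ± 2.90 and 172 ± 25.1 CPM) and the kinases Jak1 (325 ± 27.4 and 307 ± 28.7 CPM) and Jak2 (56.5 ± 4.05 and 61 ± 3.06 CPM) were not called in microglia. Neither were Irf1, a transcription factor that interferon gamma induces (53.6 ± 10.8 and 61.2 ± 9.33 CPM), and Socs1, a feedback inhibitor (2.36 ± 0.784 and 3.31 ± 2.16 CPM). In astrocytes none of these receptor chains, kinases and regulators was called either, with Ifngr1 at 46 ± 8.95 CPM in sham and 45.9 ± 9.23 CPM after FPI and Irf1 at 8.85 ± 2.98 and 10.1 ± 0.945 CPM.

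Other interferon-responsive genes were called in differing numbers in microglia, where 2.13% of tested genes were called higher. Of 17 tested genes that lean on interferon gamma, 3 were called, all higher, with a median log2 fold change of 0.33. They were Tap1, which carries peptides for MHC class I (0.95, SE 0.15), Nlrc5, the transactivator of MHC class I genes (1.46, SE 0.23), and Cxcl10, a chemokine that draws T cells (1.66, SE 0.45). Of 22 tested genes that lean on type I interferon, 21 were called higher, with a median of 2.48, among them Oasl2 (3.00, SE 0.33), Ifit2 (2.63, SE 0.29), Irf7 (2.85, SE 0.34) and Usp18 (2.47, SE 0.29). Of the 17 tested other GTPases of the interferon-inducible families, 6 were called, all higher, with a median of 0.71. They were the myxovirus resistance genes Mx1 (1.90, SE 0.30) and Mx2 (1.14, SE 0.31), and Gm1966 (1.32, SE 0.22), Gm5431 (1.23, SE 0.23), Gm4951 (2.03, SE 0.41) and Tgtp2 (2.01, SE 0.44). Tgtp2 is an immunity-related GTPase effector like Iigp1, and it stood at 2.25 ± 0.731 CPM in sham and 9.11 ± 3.77 CPM after FPI. Of 20 genes for partners of the GTPases in autophagy and inflammasomes, 1 was called, Gabarap (0.62, SE 0.17), an autophagy protein of the ATG8 family, a share near that of all genes, and the median was -0.03.

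In astrocytes edgeR called none of the tested genes of these 4 lists. At an unadjusted p under 0.05, 7 of 10 tested genes that lean on interferon gamma were higher, as were 13 of 17 that lean on type I interferon, 2 of 8 other GTPases and 0 of 16 partners, where 1.57% of all genes were. The medians of the log2 fold change were 1.23 over 10 tested genes that lean on interferon gamma, 1.27 over 17 that lean on type I interferon, 0.88 over 8 other GTPases and 0.07 over 16 partners. Without FPI astrocyte library 5 they were 0.889, 1.02, 0.707 and 0.0381 in that order, with 3, 13, 0 and 0 genes higher at an unadjusted p under 0.05, where 1.05% of all genes were. The median of the 10 GTPases in microglia was 0.44, beside 0.33 for genes that lean on interferon gamma and 2.48 for those that lean on type I interferon. In astrocytes it was 0.94, below both lists, as it was without FPI astrocyte library 5 (0.75). No test was made between lists. The lists were chosen with earlier results of these data known, and the paper's top microglial genes include Ifit3, Usp18, Irf7, Oasl2 and Ifi27l2a of the type I list. The medians therefore do not tell which interferon acts on the GTPases.

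**Figure D5:**
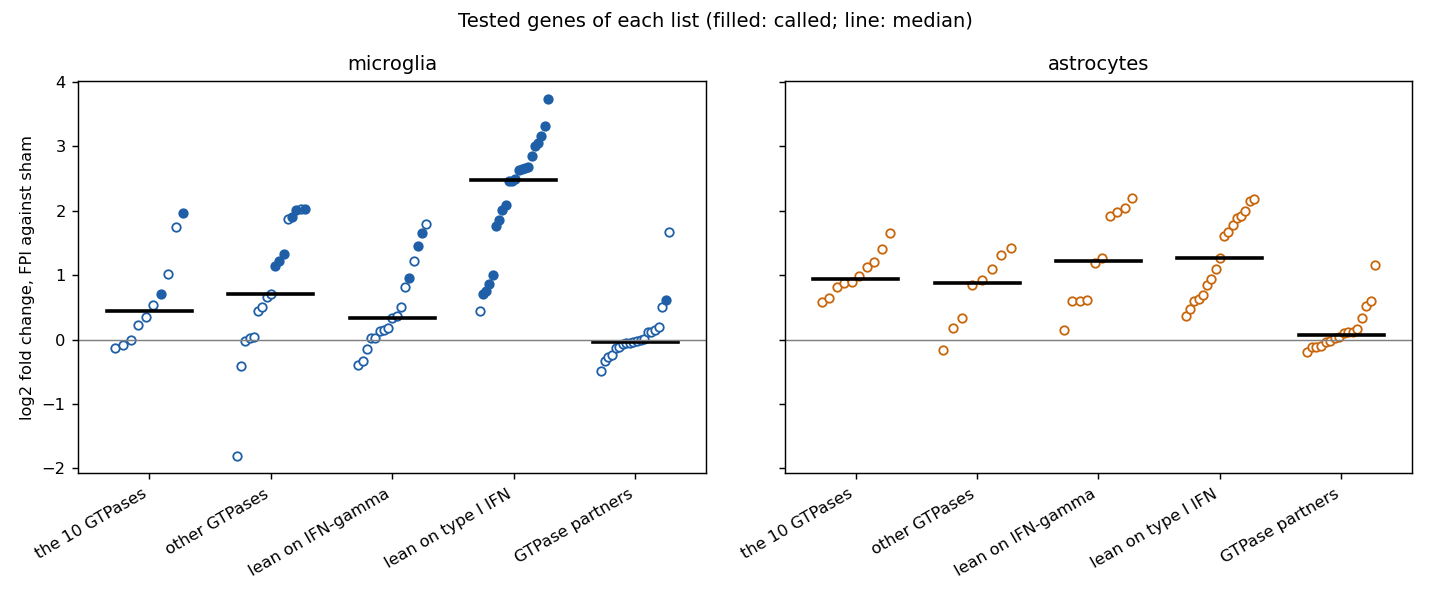
Log2 fold change of FPI against sham for each tested gene of 5 lists in microglia (left) and astrocytes (right), sorted within a list, with filled points for called genes and a line at the median. In microglia the list that leans on type I interferon stands well above the others (median 2.48) and the 10 GTPases at 0.44, and in astrocytes no point is filled.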

How the data were processed

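The authors aligned reads to mm10 (GRCm38.p6) with HISAT2 2.1.0, and their processing notes list bcl2fastq and featureCounts. The deposited values are whole-number read counts per gene, without normalization, in 1 combined table and 20 single-library tables that hold the same values. Libraries were made with a stranded total RNA kit, and whether strand was used in counting is not given in the sources used here. Samples were grouped by title and cell type label.

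Each cell type was fitted alone, and all 20 libraries together for contrasts between cell types, in edgeR 4.0.16 (R 4.3.3) with filterByExpr, TMM factors and the quasi-likelihood test, with Benjamini-Hochberg adjusted p over all tested genes. The thresholds, an adjusted p below 0.1 and an absolute log2 fold change above 0.6, are those of the study. SEs are the log2 fold change divided by the root of the F statistic. DESeq2 1.42.0 was an alternative. No member was lost to the filter, so no permutation test of single genes was needed. Levels are means with SD of CPM, and CPM per kilobase used GENCODE M21 exon lengths. Of the 39017 identifiers, 37693 matched GENCODE M21. Promoter sequences are from RefSeq. Figures were drawn with matplotlib 3.10.9.

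All 10 members are named, and from each list the called genes of smallest p in microglia, at most 4, with Mx2 and Tgtp2 named beyond that after their values were seen. The members and lists were chosen with earlier results of these data known, so that they are not independent of those results. The 2 libraries of 1 group that were most alike differed by more than sampling noise (chi-square of 12.4 per degree of freedom), as did FPI astrocyte libraries 2 and 5 (56.2). This does not tell whether libraries 2 and 5 come from 1 mouse, since 2 preparations of 1 mouse could also differ by more than sampling noise. No libraries were merged in the fits reported first, so 1 mouse may count there as 2 replicates. By animal number, 3 mice appear in both cell types, and all libraries were taken as independent. On simulated counts with 200 changed genes, changes of 1 and 2 on the log2 scale were recovered in 51.1% and 82.7% of genes in microglia (14 false calls) and in 32.3% and 79.4% in astrocytes (8 false calls). The simulated counts were drawn independently for each gene and library, so they hold no departure that many genes of a library share. These shares may therefore not hold for the real libraries, where 1 of 13741 genes was called in astrocytes. Intervals and read counts cover counting and replicate error only as these libraries show it. Results for some listed genes are left out here.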

Additional observations from a re-analysis of the deposited data

Results flagged for a closer look

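Each member's 5 libraries in each group, 40 sets in all, were tested for a single library that stands apart by Dixon's ratio, which by chance marks about 1 set in 20. It marked 3. For the row Gbp6 in astrocytes after FPI, library 5 stood at 21.4 CPM and the other 4 between 10.1 and 12.3 CPM. For Irgm1 in astrocytes after FPI, the same library stood at 35.5 CPM and the other 4 between 18.3 and 22.7 CPM. For Gbp9 in microglia after FPI, library 5 stood at 59.4 CPM and the other 4 between 39.0 and 42.5 CPM. Without these libraries the log2 fold changes were 0.85 for Gbp6 and 0.65 for Irgm1 in astrocytes and 0.40 for Gbp9 in microglia, and with them 1.12, 0.88 and 0.53.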

How the results depend on the processing

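In microglia, 2 GTPases were called (Irgm1 and Iigp1), where 2.35% of tested genes were. The number was 1 where at least 10 counts were required in every library (8 members tested, Iigp1 not among them, 2.98% of genes called). At an adjusted p below 0.05 it was 1 (1.68% of genes). With all 20 libraries fitted together it was 0 (adjusted p 0.112 for Irgm1 and 0.155 for Iigp1, 0.803% of genes called). Either name series alone gave 0 and 0 (2.95% of genes for libraries 1 to 3 and 0.815% for libraries 4 and 5). The number ran from 1 to 3 when each library was left out in turn, where 1.43% to 3.43% of genes were called. It was 3, with Gbp2 added, when every gene with at least 1 count was kept (1.86% of genes called) and with a term for the name series (2.58%). It was 2 with DESeq2 (2.05%), RLE factors (2.38%) and no minimum fold change (3.05%). In astrocytes, 0 were called under every alternative but 2. Irgm1 was called with all 20 libraries fitted together (1 member, adjusted p = 0.0672, 0.352% of genes called). Gbp3 was called with the replicate block (1 member, adjusted p = 0.0241, 0.0801% of genes called). Leaving out each library gave 0 to 0, where at most 0.0214% of genes were called. Replicate numbers were not taken to pair libraries in the fits reported first. The correlation of same-numbered deviations ran from -0.075 to 0.084 in microglia, where the block left the count at 2 (2.1% of genes called). In astrocytes it was higher for most replicates, at 0.47, -0.0067, 0.27, 0.49 and 0.36 for replicates 1 to 5. With the block there, 11 genes were called in place of 1. At an unadjusted p under 0.05 (edgeR), 8 of 10 members were then higher, where 2.61% of genes were. What same-numbered astrocyte libraries share was not tested. Between sham cell types 8 were called (60.9% of genes), and 5 where at least 10 counts were required in every library (6 members tested, 51.6% of genes). Without each library 8 to 8 were called, where 59.4% to 61.7% of genes were. The difference between the effects was called for 0 members throughout, where 0.0113% to 0.78% of genes were called. No called value changed sign. In microglia 11 of 208 alternative values changed sign, all for Gbp7, Irgm2 and Igtp, which lie near 0, and in astrocytes 0 of 198 did. RLE factors moved each of the 40 group means by less than 1 SD. The cause of these changes was not tested, except where fewer genes or libraries were fitted. Depth limits Iigp1 and the row Gbp6 in microglia, with 7 to 38 and 7 to 24 reads in single sham libraries, and Gbp9 and the row Gbp5 in astrocytes, with as few as 5 and 6 reads.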
